A study of Mus musculus with 26 samples.

Results

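Trp53, the gene for the transcription factor p53, and 9 genes that p53 is known to switch on (Mdm2, Plk2, Ccng1, Phlda3, Sesn2, Trp53inp1, Zmat3, Eda2r and Aen) were followed in cultured mouse pro-B cells that had lost Brg1. They were picked by gene symbol, and all 10 were listed in both expression tables, out of 19404 genes in the deletion table and 19719 in the knockdown table. Brg1, encoded by Smarca4, is the ATPase of SWI/SNF complexes, which move nucleosomes. Of the 10 genes, Plk2 was the one that passed the authors' test, with a 4.5-fold higher mean after Brg1 deletion. Trp53 itself did not pass in either experiment.

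All groups were C57/Bl6 cells, selected as B220+ from bone marrow and grown for 7 days with IL7 and SCF. In the deletion experiment, 2 control libraries came from Brg1+/+ x ER-Cre cells and 2 from Brg1F/F x ER-Cre cells. ER-Cre is a recombinase that tamoxifen activates, and both genotypes received 0.3 µM tamoxifen during the last 60 hours. In the knockdown experiment all cells were Rag1-/- and so could not cut their antigen receptor genes for rearrangement. They were infected on days 3 and 4 with a retrovirus carrying Ctrl-sh (3 libraries) or Brg1-sh (3 libraries), and infected cells were enriched 2 days later on hCD25 magnetic beads. The promoter driving ER-Cre and the number of mice are not given in the sources used here. The p-values thus rest on differences among libraries, which could be technical.

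p53 is made continuously and destroyed by the ubiquitin ligase Mdm2, whose own gene p53 activates, so that the pair forms a feedback loop. DNA damage and other stresses stabilize the protein, which then binds DNA as a tetramer and activates genes for cell cycle arrest, repair and cell death. Because p53 is controlled mostly as a protein, its transcript can stay level while its targets move. Pro-B cells cut and rejoin their immunoglobulin genes and divide fast under IL7, and p53 is known to guard this stage against unrepaired breaks.

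The promoter sequences show where the letters of a p53 binding half-site occur next to these genes. The consensus p53 half-site, 10 bases long and searched on both strands, was found in 4 of the 8 genes that matched a promoter in RefSeq (GRCm38.p6, which is mm10). A promoter window here runs from 250 bases before to 50 bases after a start. Of all 27025 genes with a window, 9.55% held a half-site in any of theirs (8.36% of the 32851 windows). Each line gives 30 bases with the half-site in capitals, 5′ to 3′ on the gene's strand.
Trp53: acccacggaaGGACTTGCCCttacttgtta
Mdm2: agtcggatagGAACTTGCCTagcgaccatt
Ccng1: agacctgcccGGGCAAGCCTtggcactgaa
Aen: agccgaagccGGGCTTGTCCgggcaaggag
Cdkn1a: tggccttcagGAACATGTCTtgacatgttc

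The Trp53 stretch is chr11:69580274-69580303 (plus strand), with the half-site 75 to 66 bases upstream of the start. That of Mdm2 is chr10:117710925-117710954 (minus strand), 186 to 177 bases upstream, and that of Ccng1 is chr11:40755452-40755481 (minus strand), 185 to 176 bases upstream. The Aen stretch, chr7:78895927-78895956 (plus strand), lies 121 to 112 bases upstream of one start and at bases 11 to 20 after another. Cdkn1a, the cell cycle inhibitor p21 and a classical p53 target, is shown for comparison at chr17:29090918-29090947 (plus strand), 51 to 42 bases upstream of a start. A further half-site of Cdkn1a, not printed, lies 73 to 64 bases upstream. Of the other p53 targets searched, Bax and Gadd45a held a half-site, and Bbc3, Trp53i11, Btg2 and Ccng2 did not. The windows of Plk2, Phlda3, Sesn2 and Eda2r held no half-site, which says only that these letters are not in these windows.

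The 250 bases before the Plk2 start (chr13:110394794-110395043, plus strand) are printed because Plk2 was the gene that passed the test. They are 68.4% G and C. In capitals is TGACGTCA, the palindromic cAMP response element, at 62 to 55 bases upstream. It was chosen after the sequence had been read, and 1.55% of all windows held it before the start.
Plk2: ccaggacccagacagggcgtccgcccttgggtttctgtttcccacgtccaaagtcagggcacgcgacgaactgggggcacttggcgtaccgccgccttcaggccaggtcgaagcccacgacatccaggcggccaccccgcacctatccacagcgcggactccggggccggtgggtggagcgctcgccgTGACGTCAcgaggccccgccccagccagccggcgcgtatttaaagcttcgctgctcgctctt

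The deletion libraries held 8781120 to 11591427 reads and the knockdown libraries about 5201290 to 11051850. The deposited tables give 1 mean per group. Each deletion mean was split into the whole reads of its 2 libraries, which are named by depth as the deeper and the shallower. Above a mean of 500 many values have a whole-read solution by chance (68.5% of random values from 500 to 3000), so the library values of the more abundant genes rest on the read steps found at lower levels. Smarca4 fell in both experiments in the authors' deposited tables, by 2.95-fold after deletion (adjusted p = 0.0008) and by 1.98-fold after knockdown (adjusted p = 0.0472), although reads outside the deleted exons can still count. The libraries of a group did not have the same level of macrophage marker RNA. The summed level of 9 macrophage markers was 2561 normalized reads in the deeper and 7421 in the shallower control library, and 5029.8 in the deeper and 1914 in the shallower Brg1-deleted library. In bulk RNA, fewer cells of a type and less RNA per cell cannot be told apart.

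Trp53 (ENSMUSG00000059552, mm10 chromosome 11, 69580359 to 69591873) had 2939 normalized reads in the deeper and 2471 in the shallower control library. The Brg1-deleted libraries had 2063 (deeper) and 2580.4 (shallower). The groups overlapped, since the shallower Brg1-deleted library lay above the shallower control library. In the authors' deposited table the means were 2705 and 2322, a log2 fold change of -0.22 (p = 0.4587, adjusted p = 1). A limma fit to the 4 libraries gave a 95% interval of -0.70 to 0.25 on the log2 scale. After knockdown the authors' deposited table lists 2123 in Ctrl-sh and 2022 in Brg1-sh cells, a log2 fold change of -0.07 (adjusted p = 1). Wrap53, the neighbour on the other strand (69561758 to 69580255), does not overlap Trp53 in these coordinates, and its means in the authors' deposited table were 227 in controls and 259.5 after deletion.

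Mdm2 (ENSMUSG00000020184, chromosome 10, 117688888 to 117710758), the ligase that removes p53, had 1069 and 1092 normalized reads in controls (deeper, then shallower library, as in all pairs that follow). After deletion it had 1385 and 1443. Both Brg1-deleted libraries lay above both controls. The log2 fold change was 0.39 in the authors' deposited table, where it did not pass the test (p = 0.2542, adjusted p = 1). The limma interval was 0.01 to 0.77 (adjusted p = 0.29). After knockdown the authors' deposited means were 820 and 879, a log2 fold change of 0.10. Mdm4, the partner that blocks the activation domain of p53, had authors' deposited means of 1067 and 1110 after deletion and 744 and 868 after knockdown.

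**Figure D1:**
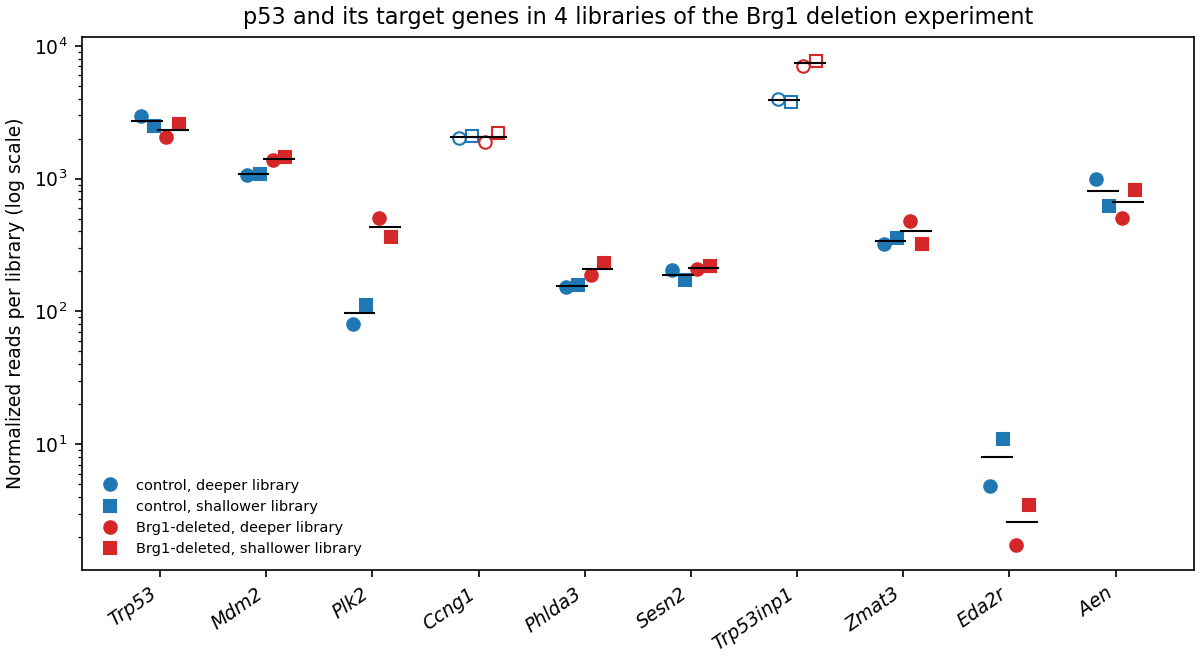
Normalized reads per library (log axis) of the 10 genes in the 4 libraries of the deletion experiment. Circles are the deeper and squares the shallower library, blue is control and red Brg1-deleted, bars are group means, and open symbols mark Ccng1 and Trp53inp1, whose values had more than 1 whole-read solution. Both Plk2 values after deletion, 508 and 360.5, lie above both control values, 80.9 and 112.

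Plk2 (ENSMUSG00000021701, chromosome 13, 110395044 to 110400844) encodes a polo-like kinase that p53 induces and that acts in G1 and at centrioles. Its control libraries had 80.9 and 112 normalized reads and its Brg1-deleted libraries 508 and 360.5, from 83, 112, 588 and 310 whole reads. The lowest Brg1-deleted value was 3.22 times the highest control value. In the authors' deposited table Plk2 rose 4.5-fold, from 96.5 to 434 (log2 fold change 2.17, p = 3.86e-07, adjusted p = 0.0003). It was 1 of 10 genes called, where 1.47% of all genes were called, and ranked 31 by p among all genes. Among 10370 genes with a mean of at least 50, 53 had a log2 fold change as high as that of Plk2 or higher.

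The limma fit to the recovered libraries gave Plk2 a log2 fold change of 2.16 (SE 0.29, 95% interval 1.43 to 2.89). Its adjusted p there was 0.131, so the call ended, and this fit called 0% of the 16807 genes it tested (16.7% at an unadjusted p under 0.05). Plk2 was higher in the library of each group with more macrophage marker RNA, 112 against 80.9 in controls and 508 against 360.5 after deletion. The mast cell and basophil marker sums had the same order within each group. Between groups the order differed. Plk2 was at 112 in the shallower control library, with a macrophage sum of 7421, and at 360.5 in the shallower Brg1-deleted library, with 1914. The part of macrophage RNA in the Plk2 values was not tested. After knockdown the authors' deposited table lists Plk2 at 58.8 in Ctrl-sh and 227 in Brg1-sh cells, a 3.86-fold difference that did not pass the adjusted threshold (p = 0.0072, adjusted p = 1). It had rank 165 by p there. Of 9830 genes with a mean of at least 50, 15 had as high a log2 fold change.

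Ccng1 (ENSMUSG00000020326, chromosome 11, 40748552 to 40755311) encodes cyclin G1, which brings a phosphatase to Mdm2, and is a strong p53 target in many tissues. The authors' deposited means were 2052 and 2062 after deletion, a log2 fold change of 0.01. The most even whole-read solution puts its libraries at 2026 and 2079 in controls and 1902 and 2221 after deletion. Limma on these values, which have the least spread that the control solutions allow, gave an interval of -0.41 to 0.41. The other control solution, 91 and 4014, would set the libraries 44.3 times apart, a ratio that 0% of 1513 resolved genes at this level reached. After knockdown the authors' deposited means were 1376 and 1566 (log2 fold change 0.19, adjusted p = 1).

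Phlda3 and Sesn2 restrain growth signalling. Phlda3 (ENSMUSG00000041801, chromosome 1, 135766119 to 135769136) competes with the kinase Akt for membrane lipids. It had 153 and 158 normalized reads in controls and 189 and 231 after deletion, with both Brg1-deleted libraries above both controls. The log2 fold changes in the authors' deposited tables were 0.43 after deletion (p = 0.3049, adjusted p = 1) and 0.85 after knockdown, from 86.7 to 156 (p = 0.019, adjusted p = 1). The limma interval for deletion was -0.14 to 1.00.

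Sesn2 (ENSMUSG00000028893, chromosome 4, 132492032 to 132510501) encodes a sestrin, which senses leucine and holds back mTORC1. Its libraries had 206 and 173 normalized reads in controls and 209.9 and 219 after deletion, so the groups were separated by little, and the limma interval was -0.36 to 0.73. The authors' deposited log2 fold changes were 0.18 after deletion and -0.40 after knockdown (adjusted p = 1 in both). Sesn2 was the one of the 10 genes with opposite signs in the 2 experiments. It carries the authors' mark for confounded genes, whose meaning is not given in the sources used here. Smarca4 carries this mark too, as do 20 of the 47 wider p53 targets and 10 of the 23 p53 regulators listed for deletion, given below.

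Trp53inp1 (ENSMUSG00000028211, chromosome 4, 11156431 to 11174379) encodes a stress-induced protein with roles in autophagy and cell death. In the authors' deposited table its means were 3878 and 7386 after deletion, a 1.9-fold difference short of the adjusted threshold (p = 0.0052, adjusted p = 0.1841). The most even solution gives 3975 and 3781 in controls and 7083 and 7690 after deletion, which do not overlap. In the other solutions the libraries of a group differ at least 2.46 times, as in at most 2.38% of resolved genes of this level. The limma interval from the most even values was 0.54 to 1.31 (adjusted p = 0.119). Taking the most even solution makes the spread within groups as small as the solutions allow, so this interval may be too narrow. After knockdown the authors' deposited means were 2267 and 3072, a log2 fold change of 0.44 (p = 0.1546, adjusted p = 1).

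Zmat3 (ENSMUSG00000027663, chromosome 3, 32334796 to 32365678) encodes a zinc finger protein that binds RNA. It had 321 and 355 normalized reads in controls and 476 and 323 after deletion. The groups overlapped. The limma log2 fold change was 0.22 (95% interval -0.42 to 0.85), and it was -0.06 without the deeper Brg1-deleted library. In the authors' deposited knockdown table it went from 168 to 233 (log2 fold change 0.47, p = 0.0814, adjusted p = 1).

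Aen (ENSMUSG00000030609, chromosome 7, 78895854 to 78911209) encodes a nuclease that cuts DNA in dying cells. Control libraries had 999 and 627 normalized reads and Brg1-deleted libraries 502 and 824, so the spread within each group exceeded the difference between them. The authors' deposited log2 fold changes were -0.29 after deletion and -0.11 after knockdown, and the limma interval for deletion was -1.16 to 0.56. The sign for deletion turned without the deeper control library (0.04 in limma) or without the deeper Brg1-deleted library (0.06).

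Eda2r (ENSMUSG00000034457, chromosome X, 97333840 to 97377216), the receptor for ectodysplasin A2, was barely transcribed. Controls had 5 and 11 whole reads and Brg1-deleted cells 2 and 3. At these counts no difference was detectable in the authors' deposited tables (adjusted p = 1 in both experiments).

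Of the 10 genes, 7 lay above and 3 below 0 after deletion, and their median was 0.21 on the log2 scale, where 49.9% of all genes lay above 0 and their median was 0. Without Plk2 the median was 0.18. Plk2 and Trp53inp1 had an unadjusted p under 0.05 in the authors' deposited deletion table, as did 9.52% of all genes. After knockdown 6 lay above and 4 below 0, with a median of 0.14 (0.10 without Plk2), where 49.7% of all genes lay above 0. There 0 of 10 passed the adjusted test in the authors' deposited table, which called 0.218% of all genes (0.177% higher and 0.0406% lower). Plk2 and Phlda3 had an unadjusted p under 0.05, as did 2.74% of all genes. In the deletion experiment the groups did not overlap in 5 of the 8 genes resolved into libraries, and in 48.1% of all resolved genes. In detail, 4 of these 8 (Mdm2, Plk2, Phlda3 and Sesn2) were higher in both Brg1-deleted libraries, as were 24.7% of all resolved genes. Eda2r was lower in both, and Trp53, Zmat3 and Aen overlapped. The sign was the same in both experiments, which share no control libraries, for 9 of the 10 genes. It was the same for 79.3% of the 11953 genes with a mean of at least 10 in both tables. Eda2r, counted among the 9, falls below that mean, and the sign of Ccng1 after deletion rests on a change of 0.01.

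**Figure D2:**
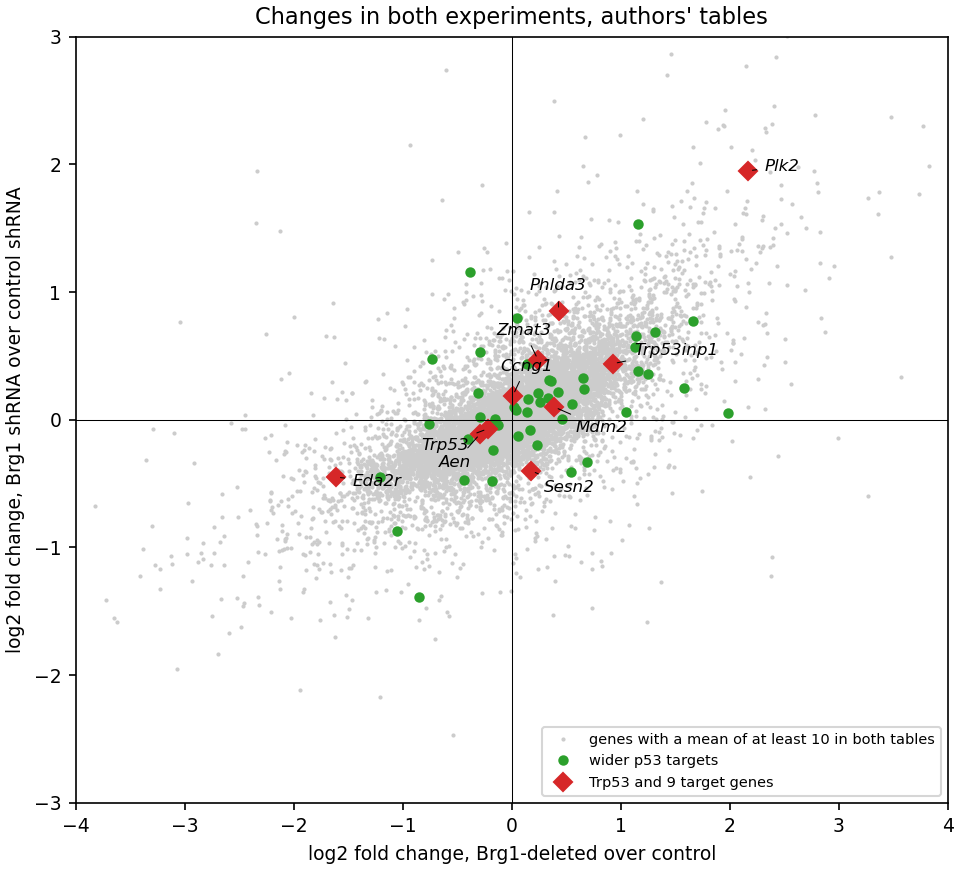
Log2 fold changes in the authors' deposited tables after deletion (horizontal axis) and knockdown (vertical axis). Grey points are genes with a mean of at least 10 in both tables that fall within the axes, green points other p53 targets and red diamonds Trp53 and the 9 target genes. Plk2 lies at 2.17 and 1.95, and Trp53 lies near the centre at -0.22 and -0.07.

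The smallest changes that the authors' test called are given as a rough guide to the other genes. Among genes with a mean of 100 to 500, the smallest called log2 fold change of either sign was 1.23 after deletion and 1.15 after knockdown. From 500 to 3000 it was 1.13 and 1.01. Larger changes could still miss the call, as did Plk2 after knockdown, at 1.95 with means of 58.8 and 227. Apart from Plk2, 8 genes after deletion and 9 after knockdown had absolute log2 fold changes under 1, and the remaining one was Eda2r after deletion. Trp53inp1 after deletion and Eda2r in both experiments had means outside the ranges given. A p above the threshold does not show that these transcripts were level.

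Levels can be compared between genes once divided by exon length, here as the authors' deposited mean per kb of exon and per 1000000 normalized reads of its column. Trp53 stood at 64.5 in control and 56.8 in Brg1-deleted pro-B cells, and at 59.1 in Ctrl-sh and 58.1 in Brg1-sh cells. These 4 values are close, although the tables were normalized separately and no test was made across them. Trp53inp1, at 57.8, 113, 39.4 and 55.1 in the same order of groups, and Ccng1, at 56.4, 58.1, 44.1 and 51.8, were the highest targets. Trp53inp1 was above Ccng1 in all groups but Ctrl-sh.

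Mdm2 came next, at 20.6, 27.6, 18.2 and 20.2. Aen stood at 13.8, 11.5, 12.6 and 12, and Phlda3 at 9.63, 13.3, 6.26 and 11.7. Sesn2 (5.26, 6.1, 4.82 and 3.76), Zmat3 (4.03, 4.89, 2.33 and 3.34) and Plk2 (3.32, 15.3, 2.36 and 9.41) were low in both control groups. On this scale Plk2 was below Sesn2 and Zmat3 in control pro-B cells and above Phlda3 and Aen after deletion. In the knockdown experiment it was below Sesn2 and about level with Zmat3 in Ctrl-sh cells, and above both in Brg1-sh cells. Eda2r was lowest in all 4 groups, between 0.0438 and 0.13. Per exon length, the control libraries of the deletion experiment overlapped between Trp53 and Trp53inp1, between Trp53inp1 and Ccng1, and between Zmat3 and Plk2. Those of the other neighbours in the order of levels did not. For Trp53inp1 and Ccng1 the most even solution was used, which has the least spread of their solutions.

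**Figure D3:**
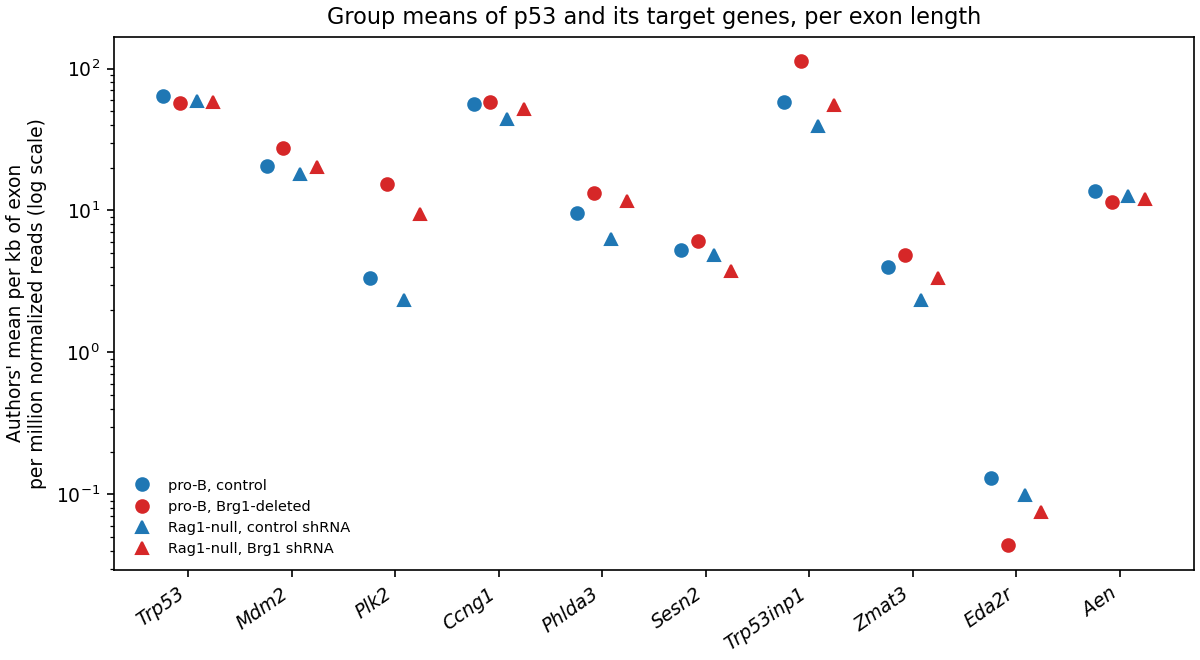
Authors' deposited group means per kb of exon and per 1000000 normalized reads (log axis) for the 10 genes. Circles are the deletion and triangles the knockdown experiment, blue is control and red Brg1-depleted. Trp53 lies between 56.8 and 64.5 in the 4 groups, while Plk2 goes from 3.32 to 15.3 and from 2.36 to 9.41.

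A wider list of 47 other p53 targets, all listed in both tables, held 1 gene that passed after deletion. Trp53i11, named as a p53-induced gene, rose 2.19-fold in the authors' deposited table, from 3091 to 6763 (adjusted p = 0.0428). Limma on the most even whole-read values gave an adjusted p of 0.12, in a fit that called 0 of 17826 genes (3107 at an unadjusted p under 0.05). The log2 fold change there, 1.13, is tied to the deposited means, because the whole reads are solved to reproduce them. Higher calls made up 0.732% of all genes. None of the 47 was called lower. The cyclin gene Ccng2 (log2 fold change 1.16, adjusted p = 0.057) and the stress gene Gadd45a (1.31, adjusted p = 0.0612) came close in the authors' deposited table. On the lower side the lowest adjusted p-values were those of the thiamine transporter gene Slc19a2 (-0.76), the kinase gene Plk3 (-1.21) and the autophagy gene Dram1 (-1.05), none called. At an unadjusted p under 0.05, 8 were higher, where 4.23% of all genes were, and 1 was lower. The list's median was 0.17, with 31 genes above and 16 below 0.

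After knockdown 0 of the 47 passed in the authors' deposited table, and 4 had an unadjusted p under 0.05, all higher, where 1.67% of all genes were. The 3 with the lowest adjusted p (equal for all, ordered by size) were Tnfrsf10b, a death receptor (log2 fold change 1.53), Cdkn1a (0.80) and Ddit4, an mTORC1 inhibitor (0.77). Among the lower ones were the repair gene Ddb2 (-0.47), Trp53i13 (-0.41) and the ribonucleotide reductase gene Rrm2b (-0.33). The list's median was 0.12, with 32 above and 15 below 0.

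Cdkn1a differed between the experiments in its values, a difference that was not tested. After deletion its libraries had 492 and 916 normalized reads in controls and 792 and 667 in Brg1-deleted cells, which overlap (authors' deposited log2 fold change 0.05). After knockdown its means in the authors' deposited table were 810.5 and 1409 (p = 0.0388, adjusted p = 1). Bax, an executor of mitochondrial cell death, had authors' deposited means of 785 and 708 after deletion and 616 and 621 after knockdown. Bbc3, which encodes the death activator Puma, had 260 and 409 after deletion (adjusted p = 0.7373) and 118 and 147 after knockdown in the authors' deposited tables.

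By role, the 10 arrest genes had median log2 fold changes of 0.35 after deletion and 0.31 after knockdown in the authors' deposited tables. The 14 cell death genes had medians of 0.09 and 0.17, the 7 genes of DNA repair and nucleotide supply 0.23 and -0.08, and the 16 genes of metabolism and growth 0.08 and 0.11. Trp53i11, counted with cell death, was the single call in these groups.

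**Figure D4:**
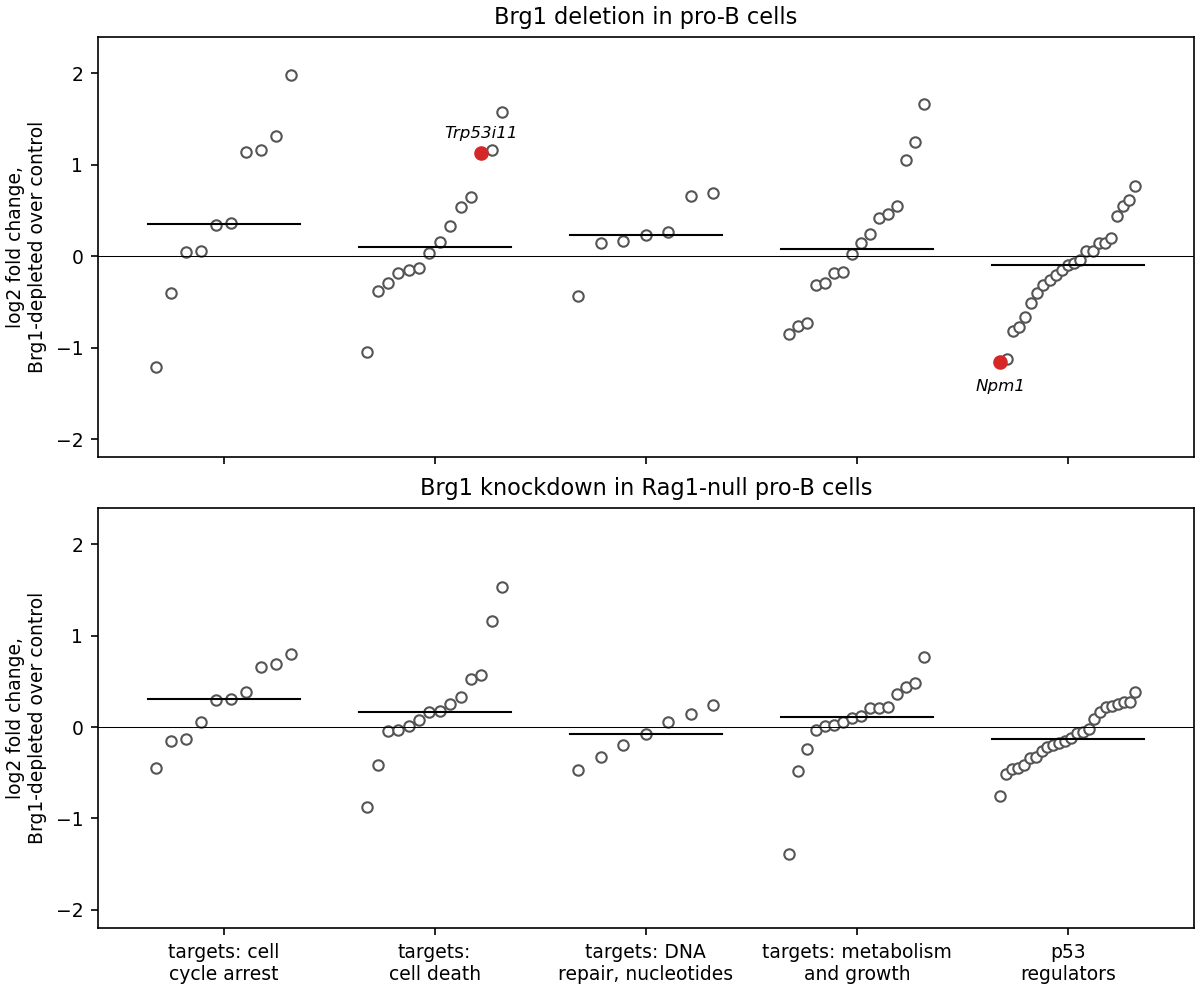
Log2 fold changes in the authors' deposited tables for p53 targets by role and for p53 regulators, after deletion (top) and knockdown (bottom). Each circle is a gene, bars are medians and filled red circles passed the adjusted threshold, which Trp53i11 and Npm1 did after deletion and none did after knockdown.

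Of 25 genes that act on p53, 23 were listed for deletion and 24 for knockdown. After deletion Npm1, which encodes nucleophosmin and holds the p53 activator Arf in the nucleolus, fell 2.23-fold in the authors' deposited table, from 10263 to 4607 (adjusted p = 0.0365), and 0.742% of all genes were called lower. In the same limma fit on the most even values, which called 0 genes, its adjusted p was 0.12. The log2 fold change there, -1.15, is tied in the same way to the deposited means, which gave -1.16. The other 22 listed did not pass. Lowest in adjusted p among them on the lower side were the deubiquitinase gene Usp10 (log2 fold change -0.82) and the checkpoint kinase gene Chek1 (-0.78). On the higher side they were the ligase gene Rchy1 (0.77), the acetyltransferase gene Ep300 (0.55) and the ribosomal protein gene Rpl11 (0.61), whose processed copies elsewhere in the genome make its count uncertain. At an unadjusted p under 0.05, 4 of the 23 were lower, Npm1 among them, and 1 was higher, where 9.52% of all genes had such a p. The list's median was -0.10, with 9 above and 14 below 0.

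After knockdown 0 of the 24 regulators passed in the authors' deposited table, and 0 had an unadjusted p under 0.05. Npm1 stood at -0.51, Rpl5 at -0.46 and Cdkn2a, the gene of Arf, at -0.45. Rchy1 stood at 0.38, Trp53bp1 at 0.27 and Ep300 at 0.27. The list's median was -0.13, with 8 above and 16 below 0.

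Markers of other cells moved with some groups and libraries. The 12 B cell markers summed to 69469 and 67564 normalized reads in controls and 102787 and 97717 after deletion, and 1 was called higher. Just 1 of the 12 had a single whole-read solution, so the even sums within each group come largely from taking the most even solution for the rest. The 10 neutrophil markers (9 listed) summed to 4137 and 2562 in controls and 174 and 1580.4 after deletion, and 3 were called lower. The 11 T and innate lymphoid cell markers summed to 525 and 569 in controls and 212 and 126 after deletion, with 2 called lower. Of all genes in the authors' deposited deletion table, 0.732% were called higher and 0.742% lower.

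None of the 9 macrophage or 5 mast cell and basophil markers was called. The mast cell and basophil sums were 166 and 511 in controls and 546 and 166 after deletion. Of the erythroid markers 3 were listed, with sums of 1.95 to 8.01, and the stromal sums lay between 11.6 and 54. In the knockdown means the macrophage sums were 333 in Ctrl-sh and 396 in Brg1-sh cells. No marker of any list was called there, where 0.218% of all genes were. The part of these cells in the values of the 10 genes was not tested.

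The genes whose pair of log2 fold changes lay nearest to that of Trp53, among 9447 genes above the median level in both tables, were Usp22, Ltn1 and Zfp664. All 3 lay within 0.01 of it by Euclidean distance, in a region where 623 genes lay within 0.1. Nearest to the median pair of the 9 target genes, 0.24 and 0.19, were Trpc2, Scpep1 and Zfp799, with 424 genes within 0.1. Likeness here rests on 2 values per gene, and the pairs near 0 are the most crowded.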

How the data were processed

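Polyadenylated RNA was sequenced after dUTP strand marking in 10 libraries of 4 groups, per the labels' protocols. The other 16 samples of the series were not analysed here. CASAVA, RSEM and DESeq are named, without versions, in the submitters' processing notes, with build mm10.

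The deposited means are a signal: for each group the authors averaged reads after division by a size factor for each library. Per the file headers, the authors also give the log2 fold change (Brg1-depleted over control), the signed linear fold (a score), the p-value and its Benjamini-Hochberg adjustment. The p-values carry up to 4 decimals, except very small ones, which are in exponent form. The exon length is given per gene in the deposited tables. Calls are the authors' adjusted p under 0.05.

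Each deletion mean was resolved into whole reads of 2 libraries to within 6.0e-05. A solution was found for all 19404 genes (for 18385 or 94.7% just 1) and for 2.2% of random values up to 100, but for 68.5% of those from 500 to 3000. As an alternative, limma 3.58.1 in R 4.3.3 with a mean-variance trend was fitted to log2 of (reads over size factor plus 0.5) for 16807 genes with 1 solution and a mean of at least 1, and p-values were adjusted over all of them. Both steps were also run on simulated data, made with the same read steps or with a set spread between libraries. This does not show how well they work on the real libraries. Intervals are 95% intervals and cover only the spread between libraries. Knockdown means pool 3 libraries and gave only approximate depths. Other steps used matplotlib 3.10.9, scipy 1.17.1, pandas 2.3.3 and numpy 2.4.6 under Python 3.11.15.

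The genes and lists were chosen with earlier results of these data known. All 10 genes are named. Of the wider targets and regulators, called genes are named, and otherwise up to 3 per direction with the lowest adjusted p among genes with a mean of at least 10, ties going to the larger change, together with Cdkn1a, Bax, Bbc3, Mdm4 and Smarca4. Genes of like pattern are the 3 nearest by both log2 fold changes. Wrap53 was added after its place beside Trp53 was seen. Btg2 is named for its promoter only. Promoter sequences come from RefSeq.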

Additional observations from a re-analysis of the deposited data

How the results depend on the processing

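Of the 10 genes, 1 was called after deletion in the authors' deposited table and 0 by limma on the recovered reads, also when each library was left out in turn (0 to 0). Of the wider targets, 1 was called, 3 at an adjusted p of 0.1, 3 when adjusted over the listed genes, 3 among those averaging at least 10 reads and 0 by limma (0 to 0 with a library left out). Of the regulators, 1 was called and 0 by limma (0 to 0 with a library left out). Trp53i11 and Npm1 have more than 1 solution and so were not in this fit. For Plk2, which was, the cause was not tested. Without the shallower control library limma called 13 genes in all, none in these lists, and 0 without each of the others. The log2 fold change of Plk2 ran from 1.91 to 2.41 as libraries were left out, with limma adjusted p-values of 0.0899 to 0.44, where a group left with 1 library is assumed to vary like the other. The fold change of Eda2r after deletion shrank from -1.61 to -0.51 with 10 added to each mean, and after knockdown from -0.45 to -0.14. The knockdown counts were 0 under every alternative run, and no scaling turned the sign of any of the 10 genes. Limma on the most even solutions and the medians without Plk2 were chosen after seeing the data. No paired analysis was possible because the deposited columns carry no replicate numbers. Depth limits Eda2r, with at most 11 reads in a library, and the knockdown table gives no values per library.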
